A study of Drosophila melanogaster with 3 samples.

Results

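Intron peaks close to a transcription start site (TSS) are peaks of the CG3281-GFP fusion protein whose summit lay inside the body of a protein-coding gene, in no annotated exon of a protein-coding gene, and 501 to 2000 bp from the nearest protein-coding TSS. The rule used only positions, and it kept 1031 of the 6565 peaks of the authors' reproducible set, or 15.7%. Embryos of Drosophila melanogaster of mixed sex, aged 0 to 24 h, came from a transgenic line that stably expresses CG3281 with GFP at its C-terminus, and chromatin sheared by sonication was precipitated with an antibody to GFP. All 3 biological replicates belong to this single group, from 1 line, and no second condition or untagged line was used here. Whole embryos of every stage up to hatching were pooled, so no cell type can be assigned to a peak. Read depth is unknown, since region lists hold no counts.

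CG3281 encodes a zinc finger protein of the C2H2 type, a class whose fingers often read short DNA words. Introns near the start of a gene are known to hold much of the regulatory sequence of fly genes, such as enhancers, start sites of alternative transcripts and insulator elements. In a gene with several promoters, a site in an intron can lie downstream of 1 start and upstream of the next.

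The sequences at the summits of the strongest of these peaks are shown first, because base composition differed between the summits and the DNA beside them. Each runs along the dm6 plus strand for 100 bases to either side of the summit, taken from the RefSeq copy of the assembly, and capitals mark every stretch of 8 or more bases that are A or T alone. The 6 peaks are among the strongest members and lie in the genes CG11050, Trl, ush, CG32772, CG9663 and Lk6.
CG11050, chr2L:6612613-6612813: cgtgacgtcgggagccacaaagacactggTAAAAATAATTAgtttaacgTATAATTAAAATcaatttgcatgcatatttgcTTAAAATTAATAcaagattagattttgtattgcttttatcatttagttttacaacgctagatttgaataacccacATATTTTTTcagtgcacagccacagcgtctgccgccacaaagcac
Trl, chr3L:14759417-14759617: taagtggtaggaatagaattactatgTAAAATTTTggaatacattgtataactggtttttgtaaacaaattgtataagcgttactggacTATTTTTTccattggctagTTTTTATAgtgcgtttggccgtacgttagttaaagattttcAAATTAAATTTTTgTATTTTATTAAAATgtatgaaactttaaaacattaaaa
ush, chr2L:480957-481157: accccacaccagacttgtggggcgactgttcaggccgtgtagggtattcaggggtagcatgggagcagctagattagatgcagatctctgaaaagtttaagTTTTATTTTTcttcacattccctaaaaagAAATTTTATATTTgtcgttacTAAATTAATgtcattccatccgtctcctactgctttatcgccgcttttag
CG32772, chrX:4910265-4910465: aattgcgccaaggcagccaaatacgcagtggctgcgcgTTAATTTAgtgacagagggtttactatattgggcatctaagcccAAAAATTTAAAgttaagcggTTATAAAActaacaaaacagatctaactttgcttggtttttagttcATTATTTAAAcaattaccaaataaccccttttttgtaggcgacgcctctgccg
CG9663, chr2L:3302084-3302284: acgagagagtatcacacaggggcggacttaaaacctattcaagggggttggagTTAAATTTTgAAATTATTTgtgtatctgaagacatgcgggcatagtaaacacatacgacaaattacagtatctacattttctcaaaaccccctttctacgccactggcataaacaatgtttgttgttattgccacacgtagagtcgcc
Lk6, chr3R:11760964-11761164: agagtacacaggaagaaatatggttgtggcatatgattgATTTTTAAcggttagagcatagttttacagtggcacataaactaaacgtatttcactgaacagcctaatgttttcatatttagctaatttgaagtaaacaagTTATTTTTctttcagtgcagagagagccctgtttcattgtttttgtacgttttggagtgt
All 6 windows held at least 2 such stretches. The CG11050 window held 4 and the Trl window held 5, the longest of them 12 and 14 bases. GC content within 50 bp of the summit was 32.7% at Trl, 33.7% at ush, 32.7% at CG9663 and 28.7% at Lk6, and 48.5%, 59.4%, 48.5% and 39.6% in a window of the same length 500 bp away. At CG11050 both were low, 20.8% and 21.8%, and at CG32772 the summit was the higher, with 31.7% against 27.7%. The whole printed Trl window had 24.9% GC, so the bases directly beside that summit were poorer in GC than the summit. Each of the other printed windows had a higher GC content than its summit.

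The strongest member was also the strongest peak of the whole set. It covers 2L from 6612387 to 6613000 and its summit lay 1026 bp downstream of the CG11050 TSS, in an intron of 140 bp, which is shorter than the region of 614 bp. Its signal was 66.6, 73.3 and 65.3 times the median of the list of regions in replicates 1, 2 and 3. The mean was 68.4 ± 4.28 (SD, n = 3), and the peak ranked 4, 2 and 1 in those lists. These lists hold many regions outside the set, and the median peak of the set averaged 3.07 on this scale over the replicates. Against the median peak of the set, the pooled signal of the CG11050 peak was 23.3 times as high. The second strongest, on 3L from 14759262 to 14759873, lay in an intron of Trl (FBgn0013263), which encodes the GAGA factor, a protein that keeps promoters open. Its summit was 1532 bp downstream of a Trl TSS, and its signal was 55.1, 55.5 and 50.4 times the list medians. The third, on 2L from 480847 to 481307, lay in the first intron of ush, whose product binds GATA factors as a cofactor. There the nearest TSS was not one of ush: the summit lay 1369 bp upstream of cbt, which encodes a zinc finger transcription factor, and the signal was 60.5, 45.0 and 49.7 times the list medians. These 3 peaks lay above all other members in each replicate, and the next by pooled signal, in introns that HmgZ and HmgD share, stood at 39.7, 38.5 and 35.3 times. Both of those genes encode HMG-box chromatin proteins.

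Host genes among the 20 strongest members had a range of known roles. Genes of nuclear proteins were Top2, which encodes topoisomerase II, chif, whose product activates a replication kinase, gce, a receptor for juvenile hormone, and NFAT, a transcription factor. Kinase genes were Lk6, whose product phosphorylates a translation initiation factor, for, which encodes a cGMP-dependent kinase, and Mekk1, a MAP kinase kinase kinase. Genes of lipids were bmm, which encodes a lipase of stored fat, and Baldspot, a fatty acid elongase, and norpA encodes the phospholipase C of phototransduction. Mean signal over the replicates was 34.8 ± 3.20 times the list median at Lk6, 25.6 ± 1.84 in the introns of chif and Hyls1, 23.2 ± 3.52 at Top2, 22.9 ± 0.978 at gce, 19.7 ± 0.951 at bmm and 17.8 ± 3.79 at Mekk1 (SD, n = 3). Relative to their means, Mekk1 and NFAT had the widest spread of the 20, and replicate 2 was lowest at both: Mekk1 stood at 21.3, 13.8 and 18.3 times, and NFAT at 22.3, 14.4 and 17.9 times.

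**Figure D1:**
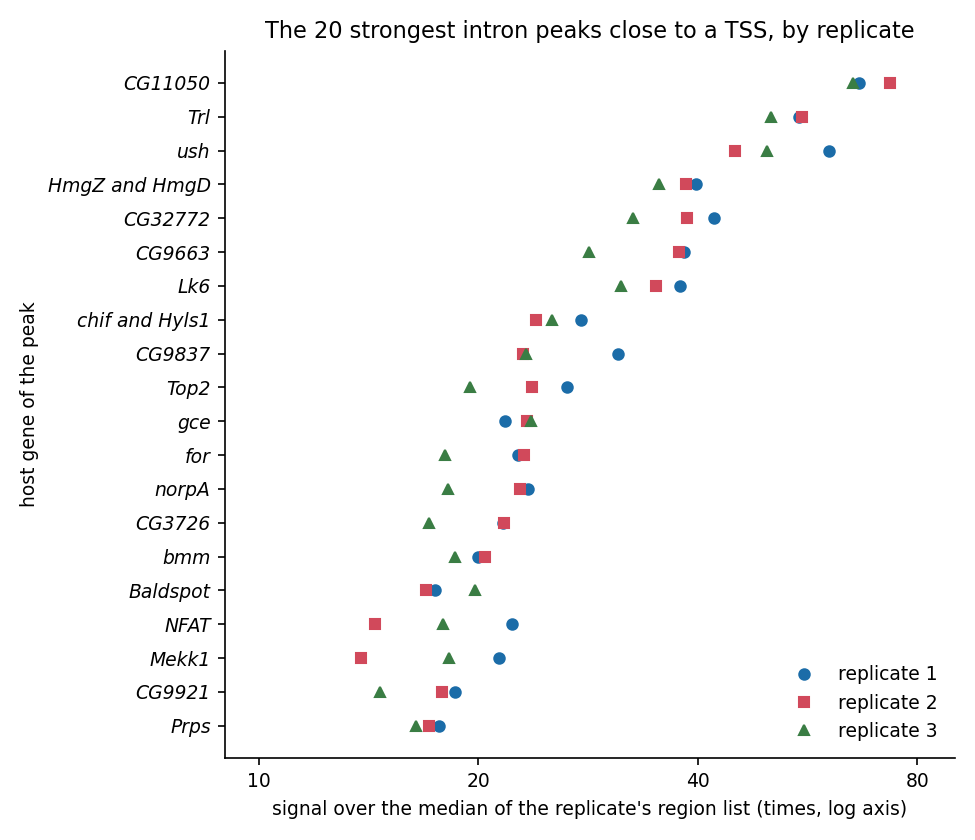
Signal of the 20 strongest intron peaks close to a TSS in each replicate, over the median of that replicate's own region list, on a log axis. Values run from 13.8 to 73.3 times, and the peaks of CG11050, Trl and ush lie to the right of all others in each replicate.

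Of these 20 peaks, 18 lay in a first intron, 13 lay downstream of the nearest TSS and 19 had as nearest TSS one of a host gene. Each was among the strongest 6565 regions of every replicate. The nearest TSS had a peak of its own within 500 bp in 6 cases, among them the TSSs of cbt, Top2 and bmm. GC content at the summit ranged from 20.8% to 51.5% with a median of 28.7%, and the peak in Top2 was the highest. It was below that of the flank at 15 of the 20 peaks.

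At the lower distance limit, the nearest members lay 502 bp (CG5854), 506 bp (ATP8B) and 507 bp (InR, the insulin receptor gene) from a TSS, with pooled signals of 617.5, 200.8 and 198.9. Just outside it, intron summits at 500 bp (CG14478) and 495 bp (CG44837 and grsm) had signals of 249.1, 269.1 and 212.7. At the upper limit, members at 2000 bp (Irk1 and CG46310), 1998 bp (Dif, an immune NF-kappaB factor) and 1994 bp (RhoGAP18B) had signals of 393.7, 1316 and 481.3, and the intron peaks just beyond, at 2002 bp (hiw), 2003 bp (bun) and 2005 bp (CHES-1-like), had 731.5, 263.7 and 576.5.

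Members were denser than peaks elsewhere in introns and between genes. Intron sequence at this distance from a TSS amounts to 10.4 Mb, and it held 99.6 peaks per Mb (95% exact Poisson interval 93.6 to 106), against 34.5 per Mb (32.7 to 36.3) in introns over 2000 bp from a TSS and 49.8 per Mb (44.3 to 55.7) between genes at the same distance. Among the strongest 6565 regions of each replicate, classed by the same rule, the density was 100.4 ± 1.11 per Mb for members, 33.6 ± 1.94 for far introns and 49.0 ± 1.29 between genes (SD, n = 3). Members exceeded far introns by 66.7 ± 3.03 per Mb and intergenic sequence at the same distance by 51.4 ± 2.21 per Mb, in 3 of 3 replicates each (p = 0.25, exact sign-flip permutation test over replicates, two-sided). With 3 replicates 0.25 is the smallest p that this test allows, here and below.

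Within the window, density was highest next to the TSS. It was 130.3 per Mb from 501 to 750 bp, 108.2 from 751 to 1000 bp and 93.6 from 1001 to 1250 bp, and then 86.3, 82.1 and 85.0 per Mb in the 3 bins out to 2000 bp. Over the replicates the first bin held 132.9 ± 1.57 per Mb and the last 82.9 ± 3.22 (SD, n = 3). Intergenic peaks also were densest in the first bin, at 74.6 per Mb, and were sparser than intron peaks in each of the 6 bins. Signal varied little with distance: Spearman's rho between the pooled signal and the distance was -0.048 over the 1031 members, which share their libraries.

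**Figure D2:**
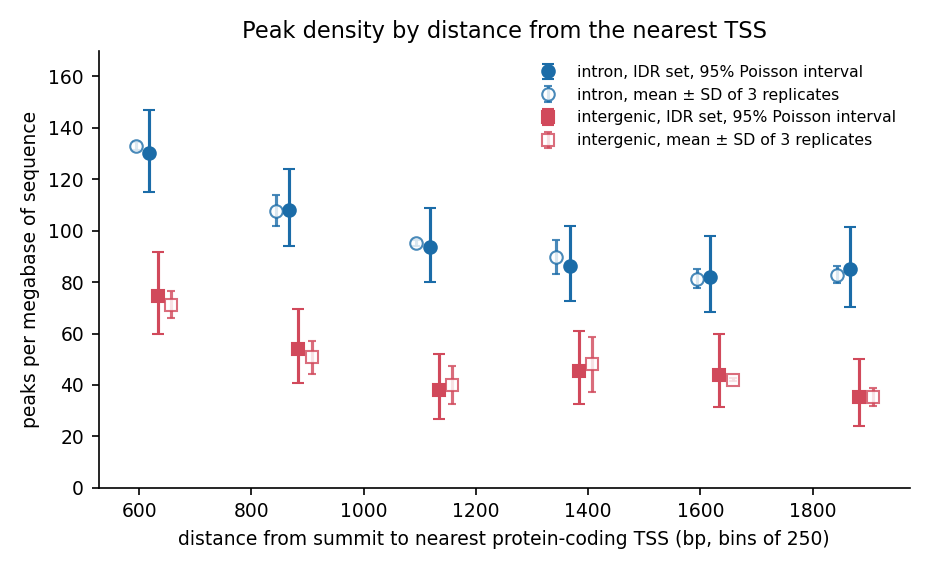
Peaks per megabase of intron or intergenic sequence against distance to the nearest protein-coding TSS, in bins of 250 bp. Filled symbols are the reproducible set with 95% Poisson intervals and open symbols the mean ± SD of 3 replicates; intron values run from 130.3 per Mb down to 82.1 and lie above the intergenic ones in each bin.

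Most members lay in the first intron and belonged to the gene whose TSS was nearest. Of the 1031, 864 were in a first intron, 83.8% (95% exact binomial interval 81.4 to 86.0), while 66.2% of all eligible bases, meaning intron bases 501 to 2000 bp from a TSS, are first intron. The nearest TSS belonged to a host gene for 946, 91.8% (89.9 to 93.4), against 80.7% of eligible bases. The side of the TSS showed no such gap: 699 members, 67.8% (64.8 to 70.6), lay downstream of it, against 67.0% of eligible bases. In the replicates' own lists, 84.3% ± 1.09 were in a first intron, 91.6% ± 1.37 had a host gene's TSS nearest and 67.4% ± 0.593 lay downstream (SD, n = 3).

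The 85 members with another gene's TSS nearest lay mostly upstream of it. This follows in part from the definition: a summit downstream of a TSS often lies inside that gene, which then counts as a host. The matching shares of eligible bases were not computed. Of the 85 members, 62 lay upstream of that TSS, 72.9% (62.2 to 82.0), as the ush peak does of cbt, against 28.5% (25.7 to 31.5) of members with a host gene's TSS nearest. Other examples were a peak in drk, an adaptor of Ras signalling, 875 bp upstream of mars, and one in ACC, the acetyl-CoA carboxylase gene, 592 bp upstream of Nup44A.

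Other annotated features accounted for few members. A noncoding gene began within 500 bp of 22 summits, 2.13%, with an ncRNA start at 19, a tRNA start at 2 and a snoRNA start at 1. The same was true of 30 of 1458 far intron peaks, 2.06%, and of 39 of 299 intergenic peaks at the same distance, 13.0%. An annotated transposable element held 1 summit. Lower-case, repeat-masked bases made up 21.8% of the bases within 50 bp of member summits and 21.7% over all peaks. The region of 81 members, 7.86%, reached an exon. The length of the intron had a median of 4402 bp and quartiles of 1944 and 10297 bp.

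A minority of members had a peak at the nearest promoter too. The nearest TSS had a peak of its own within 500 bp for 368 members, 35.7% (32.8 to 38.7), against 23.3% of all 19252 protein-coding TSS positions and 29.8% (24.6 to 35.3) for intergenic peaks at the same distance. The share was 40.6% (37.0 to 44.4) for members downstream of the TSS and 25.3% (20.7 to 30.3) for those upstream. The interval of upstream members holds the share of all TSS positions and that of all members overlaps the interval of the intergenic peaks.

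In strength, members stood between promoter peaks and the other peaks away from promoters. Their median pooled signal was 340.0 and 516 of them, 50%, fell in the stronger 3282 peaks of the set. The median signal over each replicate's list median was 3.11, 2.94 and 3.24 for members, 2.89, 2.60 and 2.99 for far intron peaks and 2.92, 2.85 and 3.14 for intergenic peaks at the same distance. Members were thus higher by 0.270 ± 0.0673 times the list median than far intron peaks and by 0.130 ± 0.0520 than the intergenic peaks, and lower by 0.292 ± 0.223 (SD, n = 3) than promoter peaks, at 3.39 ± 0.0896. Each of these 3 differences had the same sign in 3 of 3 replicates (p = 0.25 each, exact sign-flip permutation test, two-sided). In the stronger 3282 peaks alone, the difference from intergenic peaks turned to -0.099.

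Recovery in the replicates was close to that of the whole set. A peak was held by a replicate when at least 50% of its length was covered by that replicate's strongest 6565 regions. Replicates 1, 2 and 3 held 83.2%, 80.8% and 85.9% of members, 83.3% ± 2.57 (SD, n = 3), and 626 members, 60.7% (57.7 to 63.7), were held by every replicate, against 60.0% of all peaks. A further 297 were held by 2 replicates, 105 by 1 and 3 by none. The mean held share exceeded that of far intron peaks by 3.00 ± 3.33 percentage points, in 2 of 3 replicates (p = 0.50), and that of intergenic peaks at the same distance by 2.83 ± 1.86 points, in 3 of 3 (p = 0.25, both the exact sign-flip permutation test). The first of these was smaller than its spread between replicates and stood at 1.28 points without replicate 2. In the stronger 3282 peaks the second turned to -1.12 points and the first stood at 0.372. Weak members were seldom held by every replicate: 8.14% of the weakest 258 were, against 88.0% of the strongest 258. Pooled signal comes from the same 3 replicates, and a held peak must be covered by their strongest regions, so this contrast is partly built in. Region width, on which the cover rule depends, also differed between strong and weak members.

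Summits were poor in G and C. GC content within 50 bp of member summits averaged 33.6%, against 42.4% in windows of the same length 500 bp away on a side chosen at random, and 38.5% over all eligible bases. It was below the flank at 777 of the 1031 members, 75.4%, where the share over all peaks was 71.4%. In the replicates' own lists, summits stood at 34.1%, 34.9% and 33.1% and flanks at 41.8%, 42.0% and 42.2%, a difference of -7.97 ± 1.04 percentage points (SD, n = 3, same sign in 3 of 3 replicates, p = 0.25, exact sign-flip permutation test). The summit value lay below the flank value in each list, and the ranges did not overlap. For the 784 members whose flank window was wholly intronic the values were 33.3% and 41.0%. The dip was shared with the other classes: far intron peaks had 33.0% at the summit, intergenic peaks at the same distance 34.4% and promoter peaks 36.1%.

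**Figure D3:**
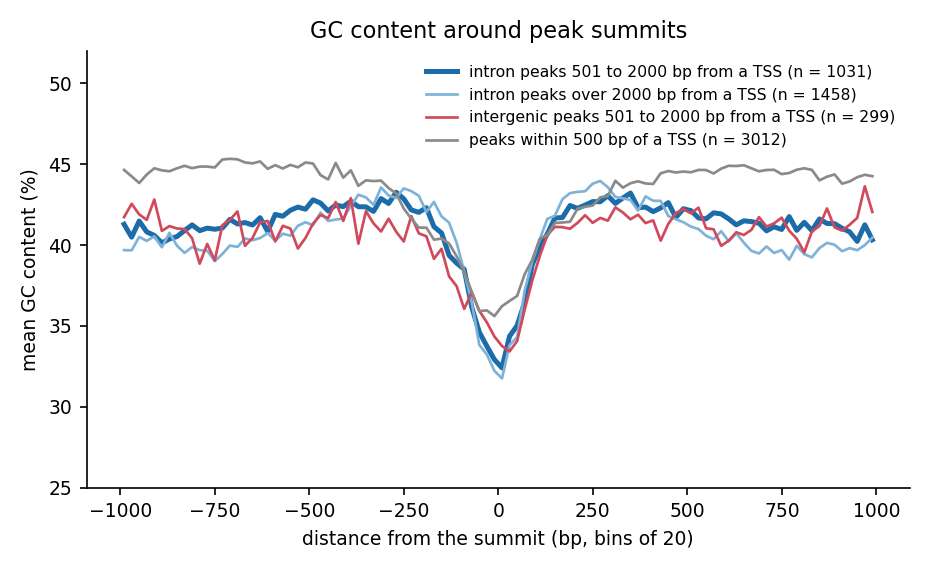
Mean GC content in bins of 20 bp from 1000 bp before to 1000 bp after the summit, on the plus strand, for members and 3 other classes of peak. The axis starts at 25%; members fall to a trough at the summit, where the mean within 50 bp is 33.6%, from flanks at 42.4%.

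The dip was deeper at stronger members. Among the strongest 104 members and the weakest 103, mean GC content at the summit was 29.8% and 37.5%, while the flanks stood at 40.5% and 41.3%. Region width differed too: the commonest width, 436 bp, was that of 0 of the strongest 104 and 100 of the weakest 103. The part of width in the GC difference was not tested. Spearman's rho between signal and GC content was -0.222 over the 1031 members and -0.188 over the 1458 far intron peaks. Stretches of 8 or more A or T within 50 bp of the summit, the feature in capitals above, were present at 795 members, 77.1% (74.4 to 79.6), and in 51.2% of flanks, against 73.8% of summits of all peaks. That feature was chosen after the sequences had been seen.

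**Figure D4:**
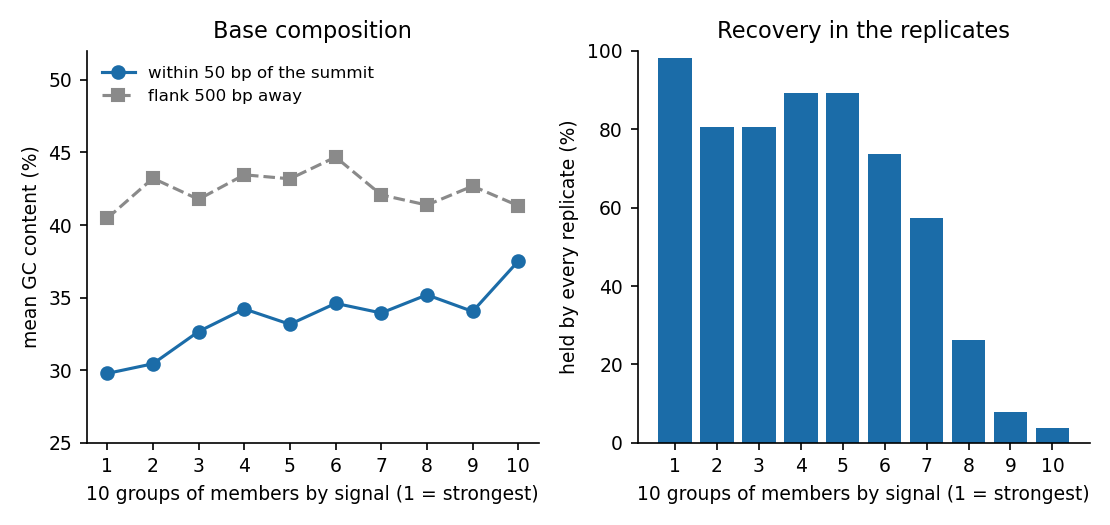
Members in 10 equal groups by pooled signal, the strongest first. Left, mean GC content at the summit (circles) and in flanks (squares), on an axis that starts at 25%; the summit rises from 29.8% to 37.5%. Right, the share held by every replicate, which goes from 98.1% in the first group to 3.88% in the last. Pooled signal and recovery come from the same replicates.

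Short words known from fly promoters and enhancers were counted within 50 bp of the summit, on both strands. The word TATAAAA of the TATA box was at 93 members, 9.02% (7.34 to 10.9), and in 3.59% of flanks, against 9.34% of summits of all peaks. The GAGA word GAGAGAG, bound by the GAGA factor, was at 13 members, 1.26% (0.673 to 2.15), and in 3.78% of flanks, against 1.19% of all summits. The CA repeat CACACACA was at 11 members, 1.07%, and in 4.07% of flanks, against 1.45% of all summits, and the E-box CAGCTG at 36, 3.49%, and in 4.56% of flanks, against 4.4% of all summits. In the replicates' lists the share at summits minus flanks was 4.72 ± 1.16 percentage points for TATAAAA, -2.72 ± 0.629 for GAGAGAG, -2.72 ± 0.327 for CACACACA and -1.89 ± 0.259 for CAGCTG (SD, n = 3), with 1 sign in 3 of 3 replicates each (adjusted p = 0.41 each over the 13 words, exact sign-flip permutation test). Of the 13 words, 8 had 1 sign in every replicate. Summits averaged 34.0% GC and flanks 42.0% in these lists, and the word shares were not adjusted for that difference. A word match is a description of the sequence and not a site.

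A promoter word was then compared between classes. The element TATCGATA, known as the DRE of housekeeping promoters, was at none of the 1031 summits, which allows a share of up to 0.357% (95% exact binomial interval), against 75 of 3012 promoter peaks, 2.49% (1.96 to 3.11), and 1.2% of summits of all peaks. It was at 1 of 1458 far intron peaks and at 0 of 299 intergenic peaks at the same distance. In the replicates' lists it was at 0.0638% ± 0.0552 of member summits (SD, n = 3). Words of 8 bases that were most raised over flanks at the peaks outside this class were also read at members. A lower count at members follows in part from that choice, so these counts are a description. Of the words of any composition, TTAAAAAA was at 5.14% of members and 5.88% of promoter peaks, and AAAATATT at 6.11% and 5.31%. Of those with at least 3 G or C, the first, CAGCCCTG, was at 67 promoter summits, 2.22%, and at 4 members, 0.388%, and 2 of 1458 far intron summits. The next, ATCGATAG, overlaps the DRE and was at 78 promoter summits and 1 member. Member sequences with CAGCCCTG or its reverse complement in capitals, and with TATAAAA or its reverse complement in capitals, are shown along the dm6 plus strand for 50 bases to either side of the summit, for the 2 members with the highest signal among those with each word on the arms shown, in genes with no sequence printed above.
Top2, CAGCCCTG, chr2L:19452840-19452940: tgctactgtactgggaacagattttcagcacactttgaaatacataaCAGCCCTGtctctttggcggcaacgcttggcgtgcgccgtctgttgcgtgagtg
CG3764, CAGCCCTG, chr3L:17003616-17003716: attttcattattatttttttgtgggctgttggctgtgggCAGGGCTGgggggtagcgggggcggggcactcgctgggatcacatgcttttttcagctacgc
Baldspot, TATAAAA, chr3L:16660540-16660640: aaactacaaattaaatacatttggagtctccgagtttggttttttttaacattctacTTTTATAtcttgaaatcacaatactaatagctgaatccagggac
CHES-1-like, TATAAAA, chrX:7698359-7698459: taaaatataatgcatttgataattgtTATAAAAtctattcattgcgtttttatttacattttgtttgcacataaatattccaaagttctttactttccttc
The Top2 summit, with 51.5% GC, lay 600 bp downstream of the TSS and the word overlapped the summit. The signal there was 26.5, 23.7 and 19.5 times the list medians in replicates 1, 2 and 3. At CG3764, which ranked 3678 in the set and was weaker than the median member, it was 3.82, 3.95 and 1.20 times, so that replicate 3 was lowest. Baldspot and CHES-1-like had summits with 29.7% and 21.8% GC.

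The members fell in 816 genes. Of 13945 protein-coding genes, 9127 have intron sequence 501 to 2000 bp from a TSS, here called eligible, and 8.94% of those had a member. This share differed with how much such sequence a gene has: it was 0.558% for genes with up to 500 eligible bases, 9.61% for 501 to 1500, 24.2% for 1501 to 3000, 32.3% for 3001 to 6000 and 48.2% above that. Host genes had a median of 2914.5 eligible bases and other eligible genes 318. A promoter peak was present at 452 host genes, 55.4%, at 26.9% of the other eligible genes and at 24.8% of all protein-coding genes. More than 1 TSS was annotated for 67.9% of host genes and for 30.5% of the other eligible genes, and the part of this in the promoter share was not tested.

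**Figure D5:**
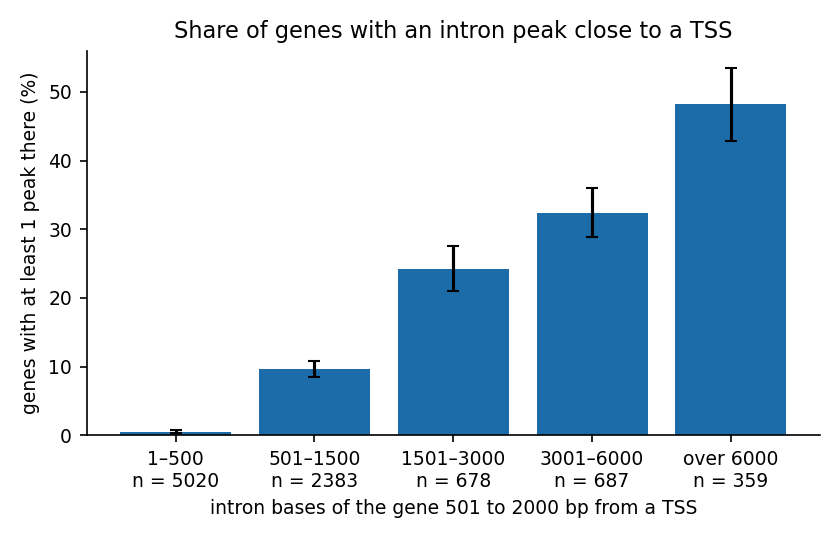
Share of eligible genes with at least 1 member, by the number of intron bases 501 to 2000 bp from a TSS, with 95% exact binomial intervals; n is the number of genes. The share goes from 0.558% to 48.2%.

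Gene lists chosen with earlier results of these data known were read beside the 8.94% of all eligible genes and beside the share among all eligible genes in the same classes of eligible bases, called the length-class share. Factors with a BTB domain, a protein interaction module of many fly transcription factors, had members in 9 of 18 eligible genes, 50%, with a length-class share of 25.8%. They were led by Trl, lola, psq and br, with pooled signals of 6194, 1001, 848.1 and 661.6. In all lists, a member counted for a listed gene also where a TSS of a different gene was nearest. Examples are br (Mur2B nearest), mdy (CG13280), wit (CG32259), mRpS9 (wtrw) and Cpr73D (Ogdh). Genes of glycolysis and lipid metabolism had members in 8 of 20, 40%, with a length-class share of 15.3%. All 8 were genes of lipid metabolism, and no glycolysis gene of the list had a member. Of the 8, bmm, SREBP, which encodes the regulator of lipid synthesis, Lsd-2, which encodes a lipid droplet protein, and mdy, a diacylglycerol acyltransferase gene, had signals of 2256, 1184, 988.7 and 442.7. The BMP and activin pathway had 5 of 16, 31.2%, with a length-class share of 20.9%, among them the transcription factor genes shn and Mad, the receptor gene wit and Smox, which encodes a Smad of the activin branch.

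Further lists had members in 16.7% to 33.3% of their eligible genes. Muscle and cytoskeleton genes had 7 of 32, 21.9% against 16.9%, led by Msp300, tsr, which encodes cofilin, and rhea, which encodes talin, at signals of 1783, 1338 and 1202. RNA-binding protein genes had 7 of 29, 24.1% against 29.0%, led by mub and pum. EGFR and Ras pathway genes had 4 of 16, 25% against 21.7%: Raf and drk stood at 959.8 and 955.7, sty, which encodes an antagonist of the pathway, at 477.3 and aop, a repressor, at 333.6. Wnt and Hedgehog genes had 5 of 22, 22.7% against 19.2%, with the co-receptor gene arr first at 459.0. Neuronal channel and synapse genes had 5 of 25, 20% against 23.4%, and nuclear receptor and ecdysone response genes 4 of 20, 20% against 23.4%. GATA factor genes and cofactors had ush and GATAd, 2 of 6, 33.3% against 32.5%. Cell cycle and growth genes had 5 of 24, 20.8% against 13.1%, led by InR at 1262, and Polycomb, trithorax and remodeller genes 5 of 30, 16.7% against 8.40%, led by ph-p at 1360.

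Other lists had few members or none. Segmentation and Hox genes, which set the body plan of the embryo, had 0 of 23 eligible genes against a length-class share of 12.9%. Notch pathway genes had 1 of 10, neur, against 21.6%, and small GTPase genes and regulators 2 of 19, 10.5% against 18.9%. Cytosolic ribosomal protein genes had 0 of 51 against 3.33%, mitochondrial ones 1 of 22, mRpS9, 4.55% against 2.41%, chemoreceptor genes 0 of 136 against 2.21% and cuticle protein genes 1 of 34, Cpr73D, against 7.17%. With lists of this size, no difference between a list and its length-class share was tested.

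Of the host genes, 625 held 1 member, 130 held 2 and 61 held 3 or more. These 61 genes had a median of 4 TSSs and a median length of 27048 bp, and 50 of them, 82.0%, also had a promoter peak. They are not all separate loci, since a peak in overlapping genes, such as Irk1 and CG46310, counted for each gene. More than 1 host gene was present for 73 members, 7.08%. Tlk, which encodes a kinase of chromatin assembly, held 8 members on X, of which 6 were held by every replicate. CG42258 and CG1677, both on X, held 7 each, and NFAT and Svil, which encodes a supervillin, 6 each. The strongest member in CG1677 lay 739 bp upstream of a brk TSS. Others in CG1677 had a TSS of Dok, CBP or CG42780 nearest. SNF4Agamma, a subunit gene of the AMP-activated kinase, Sarm, whose product acts in axon breakdown, and CG32264 held 5. The strongest Tlk member, on X from 3774267 to 3774618, stood at 13.7, 11.8 and 12.4 times the list medians, and the strongest of CG42258, from 12472204 to 12472668, at 14.7, 15.0 and 12.9 times. Some of these are summits of 1 region: 25 members, 2.42%, shared their interval with another peak of the set. Diap1, which encodes an inhibitor of cell death, held 4 members with signals between 254.3 and 912.4, and tou, which encodes a remodeller subunit, 4 on 2R without a peak at its promoter. The intervals of 2 of the tou members differ, yet in each replicate the same region spanned both summits. Shared intervals thus do not cover every case of members in 1 region.

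Over the arms, member density in eligible sequence was 94.7 per Mb on 2L, 91.6 on 2R, 101.4 on 3L, 108.7 on 3R and 104.2 on X, with 95% Poisson intervals that all overlapped. The fourth chromosome had 2 members in 0.118 Mb, 16.9 per Mb (2.05 to 61.1), below the other arms. Members were 19.1% (16.8 to 21.5) of the peaks on X and between 10.5% and 16.3% of those on the other arms.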

How the data were processed

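The deposited files are region lists from ChIP-seq. Per the labels, the authors called 30000 regions for each replicate against 1 control, and for the pooled replicates, and derived the reproducible set with the irreproducible discovery rate. The sources used here do not name the aligner or caller, nor the threshold. The authors' signal value ranks regions within a list, its scale differs between lists, and it was therefore divided by the list's median. The deposited −log10 q-value, 3.42 to 4.06 in members, was not used to rank. The deposited summit offset gave each summit. No region and signal were the same in 2 replicates' lists.

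Positions are dm6, 1-based. Gene models came from Ensembl release 115 and sequence from RefSeq release 6 of the assembly. A peak's value in a replicate is that of the strongest region spanning its summit. Intron rank is the lowest over transcripts. Calculations used Python 3.11.15, numpy 2.4.6, scipy 1.17.1, pandas 2.3.3 and matplotlib 3.10.9, and were tested on simulated data. Tests flip the signs of the 3 replicate differences, exact and two-sided. Intervals are 95% and cover counting error over peaks or genes only. P-values for words were adjusted by Benjamini-Hochberg.

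Named genes are hosts of the 20 strongest members, up to 4 per list, genes with 3 or more members, and 3 members at each distance limit; genes beyond these were chosen after their values were seen. The members, gene lists and words were chosen with earlier results of these data known. Of the listed names, 1 was matched to another symbol and 5 were not matched. GC content, density, stretches of A or T and words raised at other peaks were added after seeing the data. Alternatives were a narrower distance, the stronger peaks, every gene biotype, merged intervals, other overlaps, windows and flanks, and each replicate left out. The dm3 lists were not used here, and no sequence from 2R is printed.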

Additional observations from a re-analysis of the deposited data

How the results depend on the processing

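Of 177 alternative values for 25 results, 3 changed sign, and 17 shares, counts or GC values moved beyond their interval, by over 1.5 times or by more than the spread between replicates. No test could pass its threshold with 3 replicates, and differences that kept their sign changed in size. The lead of members over far intron peaks in held share, 3.00 percentage points, was 0.178 with the strongest 2N regions and 0.372 in the stronger 3282 peaks, where that in relative signal rose from 0.270 to 0.580. That lead in held share was 1.28 without replicate 2 and 4.61 without replicate 3, and without replicate 2 the difference from promoter peaks in relative signal was -0.166 in place of -0.292. Over intergenic peaks at the same distance, the lead in held share went from 2.83 to 0.997 with 2N regions and 1.76 without replicate 1, and that in relative signal from 0.130 to 0.255 with a limit of 1500 bp. Members held by both other replicates numbered 699 to 752 when 1 was left out. In the stronger 3282 peaks there were 516 members; 87.6% were held by every replicate, 86.2% lay in a first intron, 4.95% of eligible genes had one, and the differences from intergenic peaks at the same distance reversed, to -1.12 percentage points in held share and -0.099 in relative signal. The cause of the reversal was not tested. With a limit of 1500 bp, 7.65% of eligible genes had a member, the window being smaller. With TSSs and exons of every biotype, 64.0% lay downstream, 81.0% in a first intron and 81.6% had a host gene's TSS nearest. An overlap of 1 bp gave 68.3% held by every replicate, and the strongest 2N regions, 2 times the size of the set, 89.5%. Without each replicate in turn, 67.8% to 72.9% were held by both others, since fewer lists must hold a peak, and 6.51% to 6.84% of eligible genes had a member held by both. In the replicates' lists, the share of summits with the Motif 1 word GGTCACAC, 0.128 percentage points above the flanks, reversed to -0.353 with flanks 1000 bp away. Among the 1031 members of the set, the word was at 3 summits and in 4 flanks under the main setting. With flanks wholly in introns, an alternative chosen after seeing the data, GC content fell by 7.66 points in place of 8.87. No paired analysis was possible because all samples belong to 1 group, with no second group to pair; the tests compare classes of peaks within each replicate. The files give no depth, so weak regions cannot be told from missed ones.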
